A study of Mus musculus with 2 samples.

Results

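The killer-cell lectin-like receptors described here are the 26 genes, of 32285 in the count tables, whose symbols begin with Klra to Klrk. The rule reads the symbol and no count. By their known roles, 14 of the 26 are inhibitory receptors, 9 are activating receptors, 2 are partner chains and 1, Klrg2, was given no role. They were measured in dissociated tumours of CT26, a colorectal carcinoma line of the mouse, implanted subcutaneously in wild-type BALB/c mice aged 5 weeks. The vehicle group (0 mg/kg) and the WQ-2101 group (20 mg/kg, injected into the peritoneum once daily from a tumour size of about 100 mm³) were each represented by 1 droplet library of day 17 tumours. Both groups carried the same CT26 graft and the labels gave them the same batch; the number of mice behind a library is not stated in what was used here. The series title ties the study to PHGDH, an enzyme of serine synthesis, in tumour cells and to macrophages.

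Killer-cell lectin-like receptors sit on natural killer (NK) cells and on some T cells and myeloid cells, where they read MHC class I molecules and related proteins on other cells. Inhibitory members, such as most Ly49 receptors (the Klra genes) and the Klrc1 product NKG2A, recruit phosphatases that hold the cell back. Activating members, such as the Klrk1 product NKG2D, signal through small adaptor proteins encoded by Tyrobp and Hcst. Klrd1 encodes CD94, the chain with which NKG2A and the Klrc2 product pair, and Klre1 encodes the chain with which the Klri1 and Klri2 products pair.

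All 26 genes lie on chromosome 6 of the GRCm38 mouse build (GENCODE vM21 coordinates). Klrg2 lies apart at positions 38625693 to 38637242 and Klrg1 starts at 122270596, and the other 24 genes run from Klrb1a, which starts at 128609227, to Klra2, which ends at 131247362. Most of the 11 Klra genes are close copies of each other, and a droplet assay that reads 3′ ends can tell copies apart only by their ends. In the last 400 transcript bases, Klra3 and Klra9 were 98.2% identical over 400 aligned bases, and 7 of the 26 genes shared 60-base words with another member. Klra2 was an exception among the Klra genes, since its best match was Klri1, at 69.6% over 69 aligned bases. Levels of Klra3, Klra8, Klra9, Klra10, Klrc1, Klrc3 and Klri1 are uncertain for that reason. The BALB/c strain is also known to carry a shorter Ly49 cluster than the C57BL/6 reference genome and to lack the reference's Klra4 (Ly49D) and Klra8 (Ly49H) genes. Counts on those symbols are given as deposited, and the copy they came from cannot be told apart here.

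Promoter sequences of 4 Klra genes are shown because these promoters are alike in sequence but counts on the gene symbols stood in different cells. Klra4 was counted in tumour cells and NK cells, Klra8 and Klra7 in NK cells, and Klra2 in myeloid cells. Each is the RefSeq sequence (GRCm38.p6) of the 150 bases before the annotated start, read 5′ to 3′ on the minus strand. They are reference sequences, and those of Klra4 and Klra8 need not be the promoters behind the counts on these symbols in BALB/c cells. Capitals mark the letters GAGGAA or their reverse complement TTCCTC, a core of ETS-family sites. The windows are chr6:130067272-130067421 for Klra4, chr6:130129899-130130048 for Klra8, chr6:130233323-130233472 for Klra7 and chr6:131247363-131247512 for Klra2.
Klra4: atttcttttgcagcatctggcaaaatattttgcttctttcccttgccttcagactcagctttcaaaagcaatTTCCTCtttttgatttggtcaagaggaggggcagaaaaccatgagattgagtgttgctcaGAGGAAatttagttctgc
Klra8: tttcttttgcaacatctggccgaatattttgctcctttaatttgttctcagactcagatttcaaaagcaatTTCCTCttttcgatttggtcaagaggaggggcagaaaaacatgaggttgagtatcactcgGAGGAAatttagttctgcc
Klra7: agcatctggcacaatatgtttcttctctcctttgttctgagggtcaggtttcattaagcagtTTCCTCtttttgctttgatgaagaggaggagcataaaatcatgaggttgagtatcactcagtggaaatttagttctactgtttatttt
Klra2: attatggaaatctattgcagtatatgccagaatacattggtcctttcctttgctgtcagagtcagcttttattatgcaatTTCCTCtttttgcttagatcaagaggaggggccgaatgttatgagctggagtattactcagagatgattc
The Klra4 window was 87.9% identical to that of Klra8 over 149 aligned bases, 81.8% identical to that of Klra7 over 137 and 78.8% identical to that of Klra2 over 132. The ETS-type letters stood in the windows of 13 of the 23 members with a promoter entry, 9 of them Klra genes, and in 14.5% of all 32851 promoters of the same length. A RUNX-type core, TGTGGT or ACCACA, stood in 6 members (Klrb1a, Klrb1c, Klrc1, Klrc2, Klrc3 and Klrk1) and in 8.40% of all promoters. A T-box-type core, TCACAC or GTGTGA, stood in 2 members, Klre1 and Klrg2, and in 7.52% of all promoters. A member was counted when any of its promoter entries held the letters, whereas the shares of all promoters count single entries. The 2 are therefore not in like units, and a gene with several entries is more easily counted. These matches describe letters in a window and are not evidence of binding.

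Filtering left 13668 vehicle cells (median depth 10742.5 unique molecule counts, UMIs) and 17294 WQ-2101 cells (median 8048). Cell types were gated on marker genes that include no Klr gene, which gave 71 and 86 NK cells, 616 and 730 T cells, 108 and 81 dendritic cells, 3055 and 3171 macrophages, and 4507 and 5223 tumour cells, in the vehicle and WQ-2101 libraries in that order, as throughout. Gates left 4696 and 7457 cells without a type, and 61 cell barcodes occurred in both libraries among kept cells. The NK gate was bounded by 3 distinct NK markers, and 11 of its 157 cells held just that number; Cd3e, Cd8a and Foxp3, which the gate excluded, were at 0. One difference between the libraries touched the lymphoid and dendritic gates. The tumour gene Hmga2 stood at 12 and 117 CPM (the gene's UMIs as a share of all UMIs of the gate, scaled to the usual unit CPM) in NK-gated cells and at 48.9 and 243 CPM in dendritic-gated cells, against 1316 and 1446 CPM in tumour cells. In an unsupervised clustering without Klr genes, 1 of 71 vehicle and 18 of 86 WQ-2101 NK-gated cells fell outside the NK cluster, as did 11 of 108 and 20 of 81 dendritic-gated cells for the dendritic cluster. Levels and counts of members and of signalling genes in those gates are therefore also given for gated cells inside the cluster of the same name; receptor combinations and shares of cells are given for the whole gate. Since each group is 1 library, spread between animals is unmeasured and the treatment was not tested. Intervals are exact 95% intervals and cover counting error only, and counts of 3′ ends were not scaled by transcript length.

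Across the kept cells the members summed to 79653 UMIs, of which Klra4 held 60122 (75.5%), 61.5% of them in gated tumour cells. The other members summed to 19531 UMIs. A total of 23 members reached 10 UMIs in at least 1 gated type; Klra10 had 0 UMIs in all kept cells, Klrb1 had 14 and Klrc3 had 6.

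**Figure D1:**
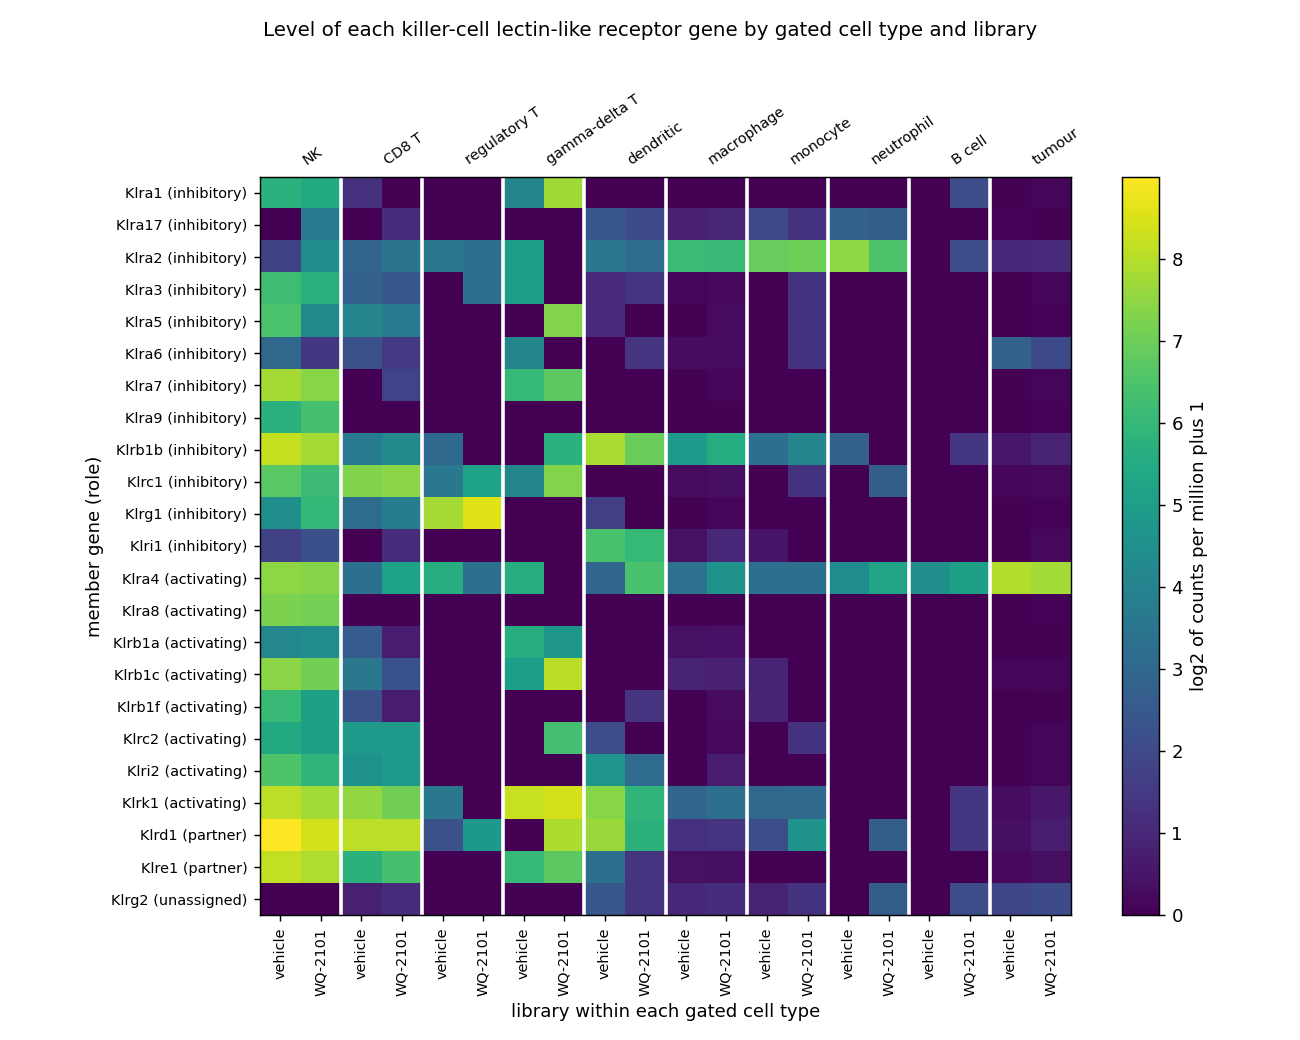
Level of the 23 members that reached 10 UMIs in a gated type, as log2 of CPM plus 1 (colour), with genes in rows by role and gated cell types in column pairs, vehicle on the left and WQ-2101 on the right. NK columns hold most of the family, Klrg1 peaks in regulatory T cells, Klra2 in myeloid columns, Klri1 in dendritic cells and Klra4 in NK and tumour cells.

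NK cells held the broadest set of receptors in both libraries. The partner chain Klrd1 was at 509 CPM (interval 443 to 583, 213 UMIs) and 330 CPM (285 to 381, 186 UMIs), with a UMI in 80.3% of vehicle and 66.3% of WQ-2101 NK cells. The partner chain Klre1 was at 289 CPM (240 to 346) and 240 CPM (201 to 284). The activating receptor Klrk1, which binds stress-induced class I relatives, was at 273 CPM (225 to 328) and 213 CPM (177 to 255), with a UMI in 64.8% and 65.1% of NK cells. Both partner chains and Klrk1 were thus seen in most NK cells of each library, where median depth was 5577 and 4409 UMIs. The background was far lower: a Klrk1 UMI stood in 0.399% and 0.689% of tumour cells, whose median depth was 17120 and 14213 UMIs, and in 0 of 13 and 1 of 279 B cells, whose median depth was 1690 and 1367 UMIs. Thinned to 2000 UMIs per cell, 32.3% of 62 vehicle and 35.4% of 65 WQ-2101 NK cells kept a Klrk1 UMI.

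Other activating receptors followed at lower levels. Klrb1c, the gene of the NK1.1 antigen of some strains, was at 172 CPM (135 to 217) and 133 CPM (105 to 167), seen in 56.3% and 51.2% of NK cells. Counts on Klra4 stood at 177 CPM (139 to 222) and 163 CPM (132 to 200), and counts on Klra8 at 148 CPM (114 to 190) and 139 CPM (110 to 173). Each of these was seen in fewer NK cells than Klrb1c: 33.8% and 37.2% for Klra4, 31.0% and 30.2% for Klra8. Klri2 was at 90.9 and 58.6 CPM, Klrb1f at 67.0 and 33.8 CPM, Klrc2 at 43.0 and 33.8 CPM, and Klrb1a at 16.7 and 19.5 CPM.

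Among inhibitory receptors, Klrb1b, whose ligand is the Clec2d product, led with 294 CPM (244 to 351) and 217 CPM (180 to 259), seen in 69.0% and 52.3% of NK cells. The Ly49 gene Klra7 followed with 220 CPM (177 to 270) and 167 CPM (135 to 204), seen in 39.4% and 38.4%. Klrc1, which pairs with Klrd1 and reads the class I relative Qa-1, was at 103 CPM (74.4 to 139) and 71.1 CPM (50.8 to 96.8). It was seen in 31.0% and 29.1% of NK cells, fewer than either partner chain. Klra3 stood at 71.7 and 51.5 CPM, Klra1 at 52.6 and 42.6 CPM, and Klra9 at 52.6 and 81.7 CPM. The inhibitory members Klra6, Klra10, Klra17, Klrb1 and Klri1 had at most 7 UMIs in the NK gate of either library.

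Set against all genes, 3 of the 19 members tested in NK cells were at least 1.5-fold higher in the WQ-2101 library (Klrg1, Klra9 and Klra2), where 19.4% of 8066 genes tested were. A further 4 of the 19 were at least 1.5-fold lower (Klrd1, Klrb1f, Klri2 and Klra5), where 9.61% of genes were. The count of higher members was thus close to the background. The fold was taken on CPM plus 5, over genes with a mean of at least 5 CPM and 10 UMIs over both libraries. The median log2 ratio of WQ-2101 to vehicle was -0.35 over the members and 0.07 over all genes tested. In gated cells inside the NK cluster the member median was -0.06, 2 of 18 members were higher (Klrg1 and Klra9, background 14.0%) and 2 were lower (Klrb1f and Klra5, background 11.3%). The small general shift in NK cells was thus nearly gone in the cells of the NK cluster. There, Klrk1 was at 281 and 267 CPM, Klre1 at 298 and 301 CPM, Klra4 at 176 and 178 CPM and Klra8 at 149 and 152 CPM. Over the gate and 6 alternative choices of cells or weights, the log2 ratio ran from -0.47 to 0.01 for Klrk1. The range was -0.31 to 0.06 for Klre1, -0.15 to 0.93 for Klra4 and -0.10 to 0.97 for Klra8.

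**Figure D2:**
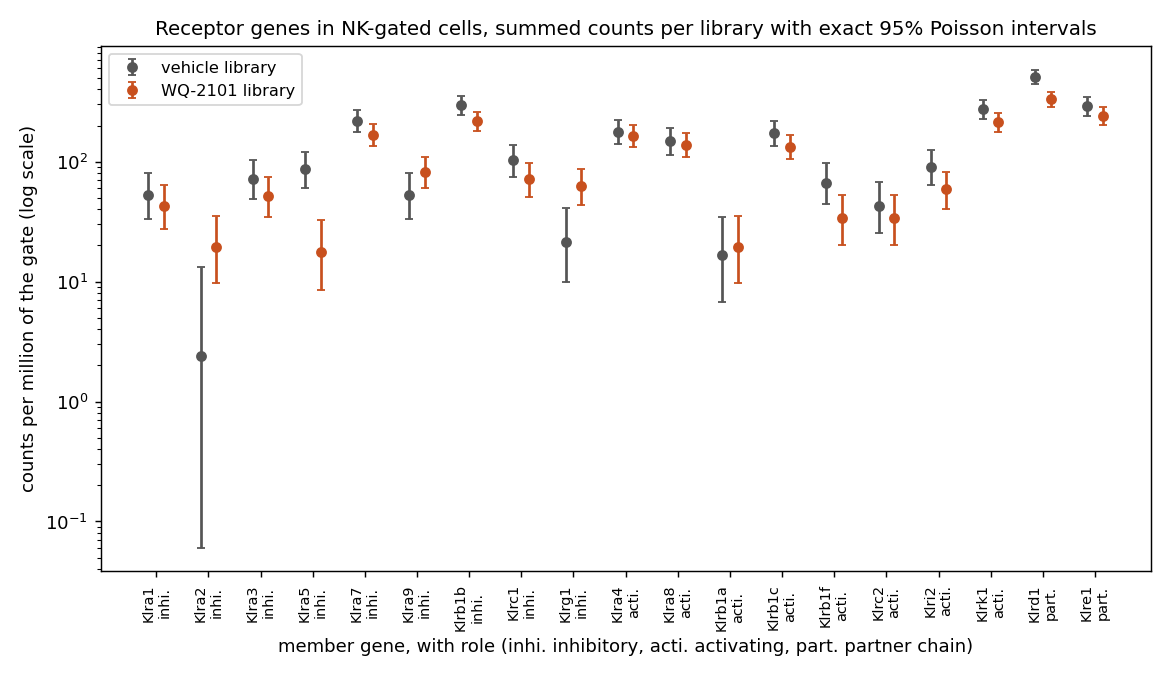
Level in CPM (log scale) of the 19 members tested in NK-gated cells, with exact 95% Poisson intervals, in the vehicle (grey) and WQ-2101 (orange) libraries. Intervals overlap for most members; Klra5 and Klrd1 are lower and Klrg1 is higher in the WQ-2101 library with intervals that do not overlap.

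Klra5 and Klrg1 kept their difference under every choice of cells tried. Klra5, the gene of the inhibitory receptor Ly49E, had 36 UMIs in 8 of 71 vehicle NK cells (86.1 CPM, 60.3 to 119) and 10 UMIs in 5 of 86 WQ-2101 NK cells (17.8 CPM, 8.52 to 32.7). The ratio was 0.206 (0.0913 to 0.424), and 12 of the 36 vehicle UMIs came from 1 cell. Klrg1, an inhibitory receptor that binds cadherins, had 9 UMIs in 5 vehicle cells (21.5 CPM, 9.84 to 40.9) and 35 UMIs in 20 WQ-2101 cells (62.2 CPM, 43.3 to 86.5), a ratio of 2.89 (1.36 to 6.83). Thinned to 2000 UMIs, the Klrg1 share was 4.84% and 6.15% and the Klra5 share 12.9% and 3.08%, so the difference in Klrg1 was small in shares at equal depth. Each kept its side of 1.5-fold in 6 of 6 alternative choices of cells, with a log2 ratio between -2.03 and -1.57 for Klra5 and between 1.27 and 1.71 for Klrg1.

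The other called members rested on less. Klra2, which is mainly a myeloid gene in these tumours, had 1 and 11 NK UMIs. In the same gate the macrophage marker list summed to 215 and 259 CPM and the monocyte list to 596 and 970 CPM, with C1qa at 19.1 and 42.6 CPM and Lyz2 at 462 and 238 CPM, and their part in the result was not tested. Inside the NK cluster Klra2 had 0 UMIs in 70 vehicle cells and 5 in 68 WQ-2101 cells. Klrd1 had a ratio of 0.649 (0.530 to 0.793) in the gate and 0.769 (0.625 to 0.946) inside the cluster, where its log2 ratio of -0.37 was short of 1.5-fold. With Leiden clusters in place of gates it was -0.22. Klri2 likewise fell short inside the cluster (-0.41), as did Klrb1f in cells with no Hmga2 UMI (-0.52) and with Leiden clusters (-0.48), and Klra9 with predicted doublets kept (0.53) and in cells of at least 1000 UMIs (0.56).

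By role, inhibitory members summed to 916 and 748 CPM in NK cells and activating members to 988 and 796 CPM. The ratio was 0.816 (0.709 to 0.94) for the inhibitory sum and 0.806 (0.703 to 0.923) for the activating sum. The activating sum holds counts on Klra4 and Klra8, whose copy of origin, and so role, cannot be told. Without Klra4 it was 811 and 632 CPM, a ratio of 0.780 (0.670 to 0.908). Both roles were thus lower by a similar amount in the gate; inside the NK cluster the log2 ratios were -0.06 and -0.09, and with every cell weighted alike they were -0.01 and 0.33, so the direction of the activating sum depended on the weighting.

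By the roles assigned to the symbols, single NK cells usually held UMIs of both kinds of receptor. Klra4 and Klra8 were counted as activating, although the copy behind their counts cannot be told, and shares without them are not given. UMIs of at least 1 inhibitory and at least 1 activating member were found in 60 of 71 vehicle cells (84.5%, 74.0 to 92.0) and in 74 of 86 from the WQ-2101 library (86%, 76.9 to 92.6). Neither role was seen in 0 of 71 vehicle cells (exact interval up to 5.06%) and in 3 of 86 WQ-2101 cells. These shares depended on depth: after thinning to 2000 UMIs, both roles were seen in 59.7% of 62 and 55.4% of 65 cells, and neither in 1 of 62 and 13 of 65. A Klra gene was seen in 77.5% and 76.7% of NK cells, 34 and 47 cells carried 2 or more different Klra genes, and 5 was the most in any cell. The median NK cell held UMIs of 6 and 7 different members. Klra8 was seen in 42.9% of the 28 vehicle cells with Klra7 and in 23.3% of the 43 without, and in 45.5% of 33 and 20.8% of 53 in the WQ-2101 library. After thinning, the vehicle shares were 20.0% and 19.1% and the WQ-2101 shares 38.9% and 12.8%.

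CD8 T cells (304 and 356) used a narrower set, led by the CD94 chain and its NKG2 partners. Klrd1 was at 272 CPM (245 to 301) and 274 CPM (249 to 301), seen in 52.6% and 52.2% of cells, and Klrc1 was at 157 CPM (137 to 180) and 173 CPM (153 to 194), seen in 39.8% and 40.4%. Set against its level in NK cells, Klrc1 was higher in the CD8 T cells of both libraries, with intervals that overlapped in the vehicle library and did not in the WQ-2101 library. A Klrc1 UMI stood in 0.155% and 0.249% of tumour cells. Klrd1 was seen in 70.2% of the 121 vehicle CD8 T cells with Klrc1 against 41.0% of the 183 without, and in 71.5% of 144 against 39.2% of 212 in the WQ-2101 library. At a depth of 2000 UMIs these shares were 53.7% against 30.8% and 55.4% against 32.9%, so the 2 chains were found together more often at equal depth. The same held for Klrd1 with and without Klrk1, at 46.3% against 32.1% and 60.3% against 33.5%, so it was not particular to Klrc1. In NK cells at that depth, Klrd1 was seen in 72.7% of 11 vehicle cells with Klrc1 against 56.9% of 51 without. In the WQ-2101 library it was 33.3% of 9 against 39.3% of 56.

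Klrk1 in CD8 T cells was at 184 CPM (162 to 208) and 131 CPM (114 to 150), a ratio of 0.713 (0.590 to 0.860) that did not reach 1.5-fold. Klre1 was at 54.6 and 82.2 CPM, a ratio of 1.5 (1.12 to 2.03), and its log2 ratio on CPM plus 5 of 0.55 fell just short of 1.5-fold; it was past 1.5-fold in 5 of 6 other choices of cells, between 0.55 and 0.95 over the 6, with 0.84 inside the T cell clusters. Klrc2 was at 27.7 and 28.4 CPM, Klri2 at 23.3 and 28.4 CPM and Klra5 at 16.0 and 12 CPM. Klra8 had no UMI in CD8 T cells of either library, a level of at most 2.19 and 1.90 CPM by a limit of 3 counts.

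Of the 13 members tested in CD8 T cells, 1 was at least 1.5-fold higher in the WQ-2101 library, where 8.35% of 9860 genes were, and 1 was lower, where 5.06% were, so both counts lay near the background. The higher one was Klra4, with 12 and 58 UMIs (8.74 and 36.7 CPM), and Hmga2 moved with it from 59.7 to 116 CPM. Of the CD8 T cells with a Klra4 UMI, 3 of 11 vehicle and 18 of 29 WQ-2101 cells also had one of Hmga2; the log2 ratio of Klra4 was 1.60 in the gate, 0.39 inside the T cell clusters and 0.66 in cells with no Hmga2 UMI. The lower one was Klrb1c, with 15 and 6 UMIs. Over all gated T cells, 2 of 15 members were higher (Klra4 and Klra1, background 5.98% of 10051 genes) and 0 were lower (background 2.94%).

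Regulatory T cells (54 and 35) had the highest Klrg1 level of the gated types in both libraries. It had 60 UMIs in 25 vehicle cells (221 CPM, 168 to 284) and 42 UMIs in 17 WQ-2101 cells (379 CPM, 273 to 512), that is in 46.3% and 48.6% of cells, and the ratio was 1.72 (1.13 to 2.59). Other genes differed in the same gate, with Foxp3 at 324 and 496 CPM, Ptprc at 750 and 1615 CPM, Lyz2 at 1423 and 505 CPM and Hmga2 at 110 and 54.1 CPM, and their part in the Klrg1 ratio was not tested. Thinned to 2000 UMIs, 31.8% of 44 and 50% of 22 cells had a Klrg1 UMI. In CD8 T cells Klrg1 was at 8.01 and 12.6 CPM, below its level in regulatory T cells of either library. Inhibitory members without Klrg1 added little there, since all inhibitory members summed to 68 and 48 UMIs. Activating members other than Klra4 had 3 UMIs in the vehicle and 0 in the WQ-2101 library.

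The gamma-delta T cells were few (23 and 14 cells), which limits them to a limit of 47.6 and 79.1 CPM for 3 counts. Klrk1 led with 302 CPM (182 to 471) and 343 CPM (183 to 586), seen in 10 of 23 and 6 of 14 cells. Klrb1c had 2 and 10 UMIs, in 1 and 4 cells. All members summed to 42 and 67 UMIs, a ratio of 2.65 (1.78 to 4.0), and inhibitory members to 11 and 26 UMIs, a ratio of 3.93 (1.87 to 8.81), so the family sum was higher in the WQ-2101 library while Klrk1 had overlapping intervals. In the same gate the NK marker list summed to 1889 and 2874 CPM, with Ncr1 at 79.4 and 105 CPM. Ptprc was at 905 and 1582 CPM and Lyz2 at 730 and 132 CPM there, and the part of all these was not tested. In CD4 T cells with no Foxp3 UMI (67 and 64 cells), 4 members reached 10 UMIs over both libraries: Klrg1 at 76.1 and 45.7 CPM, Klrd1 at 67.2 and 34.3 CPM, Klrk1 at 67.2 and 22.9 CPM, and Klrc1 at 31.4 and 34.3 CPM. Each of the 4 had overlapping intervals between the libraries, whereas the sum over all members was lower in the WQ-2101 library, with 76 and 31 UMIs and a ratio of 0.521 (0.331 to 0.8). The activating sum had 25 and 7 UMIs, a ratio of 0.357 (0.131 to 0.850), and the inhibitory sum 30 and 18 UMIs, a ratio of 0.766 (0.402 to 1.42). Lyz2 was at 1182 and 320 CPM in this gate, and its part was not tested.

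Dendritic cells held Klrb1b, Klrd1, Klrk1 and Klri1, without Klrc1: this gene had no UMI in 108 and 81 cells, which by a limit of 3 counts allows a share of cells with a UMI, not of cells expressing the gene, of up to 2.78% and 3.70%. Klrc2 had 3 and 0 UMIs. Klrb1b was at 229 CPM (199 to 262) and 121 CPM (95.9 to 151), seen in 67.6% and 43.2% of cells. Klrd1 was at 199 CPM (171 to 230) and 54.5 CPM (37.9 to 75.7), and Klrk1 at 168 CPM (142 to 197) and 59.1 CPM (41.8 to 81.1). The NK marker list summed to 41.1 and 37.3 CPM in these cells against 5018 and 4516 CPM in NK cells. The gates set much of that contrast, since dendritic cells were allowed fewer than 3 distinct NK markers and NK cells needed 3. Ncr1, which is on that list, was at 0, and Cd3e was at 0 by the gate. Klri1 had 38.2% of all its UMIs in the dendritic gate, the largest share of any gated type, at 83.4 CPM (65.6 to 104) and 63.8 CPM (45.8 to 86.5), against 2.39 and 3.55 CPM in NK cells.

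The receptors were spread over the dendritic subsets of the vehicle library. Klrb1b was at 203 CPM in 38 migratory cells (Ccr7, Fscn1 and Ccl22 among their markers), 203 CPM in 14 type 1 cells (Xcr1 or Clec9a) and 253 CPM in the 56 others. Klrd1 stood at 140, 52.8 and 279 CPM in the same order, and Klri1 at 83.1, 106 and 77.2 CPM. The Klrd1 interval of the type 1 cells (21.2 to 109) lay below that of the other cells (233 to 331), whereas the Klrb1b intervals overlapped.

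Of the 7 members tested in dendritic cells, 4 were at least 1.5-fold lower in the WQ-2101 library (Klrb1b, Klrd1, Klrk1 and Klri2), where 12.8% of 9361 genes were, and 1 was higher (Klra4), where 18.2% were. The ratio was 0.530 (0.403 to 0.691) for Klrb1b, 0.274 (0.185 to 0.395) for Klrd1 and 0.352 (0.240 to 0.506) for Klrk1. Inside the dendritic cluster, Klrb1b was at 256 and 214 CPM and no longer past 1.5-fold, Klrd1 was at 225 and 104 CPM with a ratio of 0.462 (0.312 to 0.668), and Klrk1 was at 198 and 110 CPM with a ratio of 0.554 (0.376 to 0.798). There, 3 of 6 members were lower (background 14.5%) and 1 was higher (background 13.2%). At 2000 UMIs per cell, Klrd1 was seen in 23.1% of 108 and 7.79% of 77 cells and Klrk1 in 30.6% and 14.3%, while Klrb1b was seen in 31.5% and 31.2%. Of these 4 lower members, Klrd1 stayed past 1.5-fold in 6 of 6 choices of cells, Klrk1 and Klri2 in 4 and Klrb1b in 2; in cells with no Hmga2 UMI (78 and 50), Klrk1 had a log2 ratio of -0.51 and Klrd1 of -1.26.

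**Figure D3:**
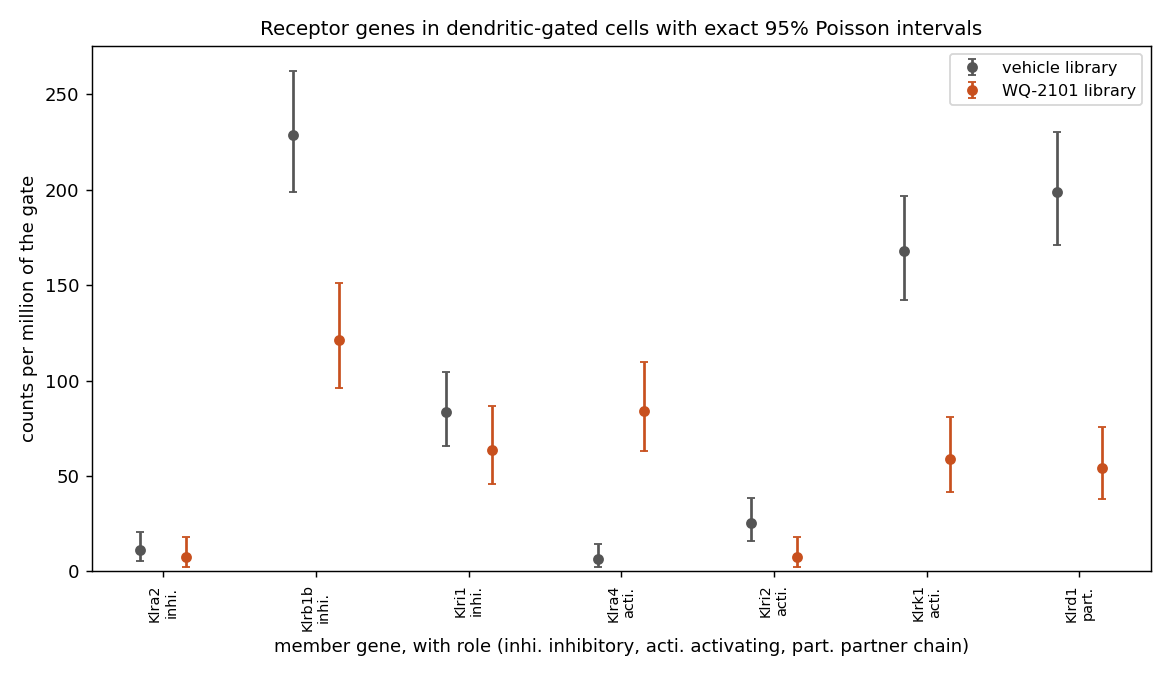
Level in CPM of the 7 members tested in dendritic-gated cells (linear axis from 0), with exact 95% Poisson intervals, in the vehicle (grey) and WQ-2101 (orange) libraries. Klrb1b, Klrd1, Klrk1 and Klri2 lie lower and Klra4 higher in the WQ-2101 library; the intervals of Klri2, Klri1 and Klra2 overlap between the libraries.

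Klra4 in dendritic cells had 6 and 54 UMIs. Of the 54, 47 lay in the 20 gated cells outside the dendritic cluster, in which Hmga2 was at 415 CPM and the pan-leukocyte gene Ptprc at 167 CPM, against 86.1 and 635 CPM in the 61 cells inside it. Klra4 in the cells inside the cluster was at 5.29 and 20.8 CPM.

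Macrophages expressed 2 inhibitory members above the level of the rest. Klra2, the gene of Ly49B, which is known from myeloid cells, was at 68.8 CPM (65.6 to 72.1, 1724 UMIs) and 66.5 CPM (63.0 to 70.2, 1346 UMIs), a ratio of 0.967 (0.900 to 1.04). It was seen in 37.7% and 30.6% of macrophages; thinned to 2000 UMIs, the shares were 12% and 12.2%, so the level and the share at equal depth were alike in the libraries. In tumour cells Klra2 was seen in 1.91% and 1.65% at higher depth. Monocytes had 119 CPM (106 to 134) and 129 CPM (104 to 159) of Klra2, above macrophages in both libraries by intervals that do not overlap. Neutrophils had 177 CPM (136 to 227) and 89.3 CPM (52.0 to 143), from 62 and 17 UMIs, a ratio of 0.505 (0.277 to 0.874). The macrophage marker list in the neutrophil gate summed to 3722 and 1796 CPM, the neutrophil list to 30073 and 80313 CPM, and Hmga2 was at 74.2 and 221 CPM; their part in the result was not tested.

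Klrb1b was the second, at 28.3 CPM (26.2 to 30.4) and 46.8 CPM (43.9 to 49.9) in macrophages, a ratio of 1.66 (1.5 to 1.83). It was seen in 12.8% and 17.2% of macrophages, and at equal depth in 4.96% and 7.5%. Klrk1 stood at 6.63 CPM (5.66 to 7.71) and 9.10 CPM (7.83 to 10.5). Of the 4 members tested in macrophages, 2 were at least 1.5-fold higher in the WQ-2101 library (Klrb1b and Klra4), where 2.32% of 9420 genes were, and 0 were lower, where 0.552% were; the 4 are Klra2, Klra4, Klrb1b and Klrk1. With every cell weighted alike the log2 ratio of Klrb1b was 0.54, and with 20 CPM added in place of 5 it was 0.47, both short of 1.5-fold.

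Klrb1b was unevenly spread among macrophages. By cluster, it was at 66.2 and 83.7 CPM in cluster 13 and at 31.1 and 52.6 CPM in cluster 14, the macrophage clusters with most H2-Aa, an MHC class II gene, at 2722 to 3619 CPM. It was at 2.02 and 6.39 CPM in cluster 15, 3.84 and 11.3 CPM in cluster 17 and 3.84 and 8.13 CPM in cluster 22, where H2-Aa was at 159 to 1064 CPM. Klrb1b was thus higher in the WQ-2101 library in each of the 5 macrophage clusters. H2-Aa was higher there in each of them as well, at 3471 and 3619 CPM in cluster 13, 2722 and 2815 in cluster 14, 223 and 517 in cluster 15, 535 and 1064 in cluster 17, and 159 and 223 in cluster 22. The mix of clusters also differed: cluster 22 held 1128 and 388 cells and cluster 14 held 231 and 447. How much of the difference in the whole gate each contributes was not tested. Klra2 varied less, from 43.3 to 103 CPM over the 5 macrophage clusters and both libraries. These values cover all cells of each cluster, gated or not. Cluster 22, where Klra2 reached 103 CPM, had the monocyte marker Ly6c2 at 159 and 135 CPM and C1qa at 376 and 331 CPM. In the monocyte cluster 16, Ly6c2 was at 186 and 214 CPM and C1qa at 83.1 and 75.0 CPM.

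**Figure D4:**
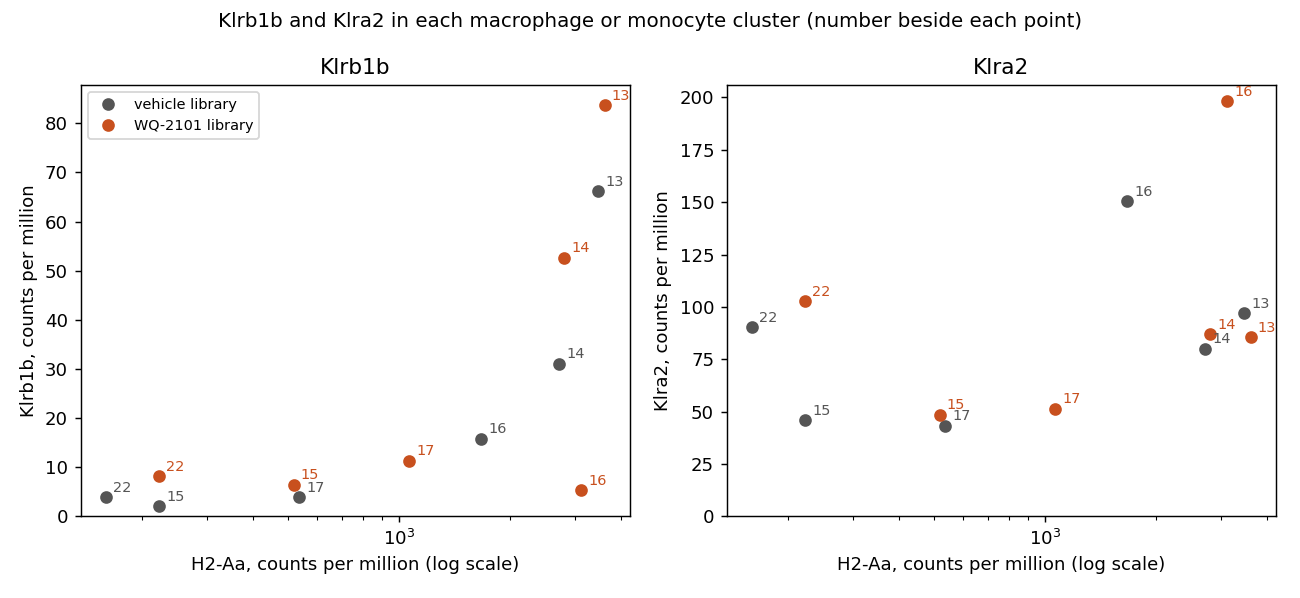
Klrb1b (left) and Klra2 (right), in CPM from 0, against the MHC class II gene H2-Aa (CPM, log scale) in 5 macrophage clusters (13, 14, 15, 17, 22) and 1 monocyte cluster (16); each point is 1 cluster in the vehicle (grey) or WQ-2101 (orange) library. Klrb1b is high in the clusters 13 and 14, whereas Klra2 is highest in the monocyte cluster.

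Monocyte-gated cells were mixed by cluster, since 65 of 558 lay in the monocyte cluster. Among them, 2 of 5 members tested were at least 1.5-fold higher in the WQ-2101 library (background 8.12% of 9054 genes) and 0 were lower (7.15%). They were Klrb1b, at 8.70 and 16.2 CPM from 20 and 11 UMIs, and Klrd1, with 8 UMIs in 5 cells and 16 in 8 cells.

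Tumour cells held 1 member at a level like that of NK cells, Klra4. It was at 246 CPM (243 to 249, 20439 UMIs) and 214 CPM (211 to 217, 16525 UMIs), seen in 89.1% and 82.3% of tumour cells, and in 37.1% and 36.5% of 1000 cells per library thinned to 2000 UMIs. The ratio was 0.870 (0.852 to 0.888). Klra8, whose reference promoter window is the closest to that of Klra4 among those printed, had 0 and 5 UMIs in tumour cells. Klra4 was in every tumour cluster, from 185 to 356 CPM in the vehicle and from 162 to 244 CPM in the WQ-2101 library over 12 clusters, so no single cluster carried it. The tumour gate excludes cells with a Ptprc UMI, and its NK marker list summed to 18.1 and 18.9 CPM. Of the 1 member tested there, 0 were past 1.5-fold, where 0.86% of 9999 genes were higher and 0.41% lower.

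Counts on Klra6 and Klrg2 also lay mostly in tumour cells (64.9% and 54.0%), at low levels. No BALB/c sequence was used here, so which Ly49 copy the counts on Klra6 came from cannot be told. Klra6 was at 6.0 CPM (5.49 to 6.55) and 3.03 CPM (2.65 to 3.44), a ratio of 0.504 (0.430 to 0.590), with a mean below the 5 CPM needed for a call. Klra5, its nearest relative by transcript end (90.6% identical over 395 bases), had 2.9% of its UMIs in tumour cells. Klrg2 was at 2.71 and 3.17 CPM.

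In T cells and macrophages, counts on Klra4 and on Hmga2 were both higher in the WQ-2101 library. Those on Klra4 were at 26.0 and 55.4 CPM in T cells with Hmga2 at 70.5 and 140 CPM, and at 9.38 and 23.3 CPM in macrophages with Hmga2 at 44.9 and 84.1 CPM. B cells had 1 and 20 Klra4 UMIs. In vehicle NK cells the picture differed, with 74 Klra4 UMIs beside 5 of Hmga2. The number of Klra4 UMIs per Hmga2 UMI was 0.187 (0.184 to 0.190) and 0.148 (0.145 to 0.150) in tumour cells, 0.209 (0.181 to 0.241) and 0.277 (0.25 to 0.307) in macrophages, 0.370 (0.276 to 0.491) and 0.397 (0.328 to 0.478) in T cells, and 14.8 and 1.39 in NK cells. The log2 ratio of Klra4 in macrophages was 0.98 in the gate, 0.17 inside the macrophage clusters and 0.44 in cells with no Hmga2 UMI. What part of these counts came from tumour RNA in each droplet was not tested.

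**Figure D5:**
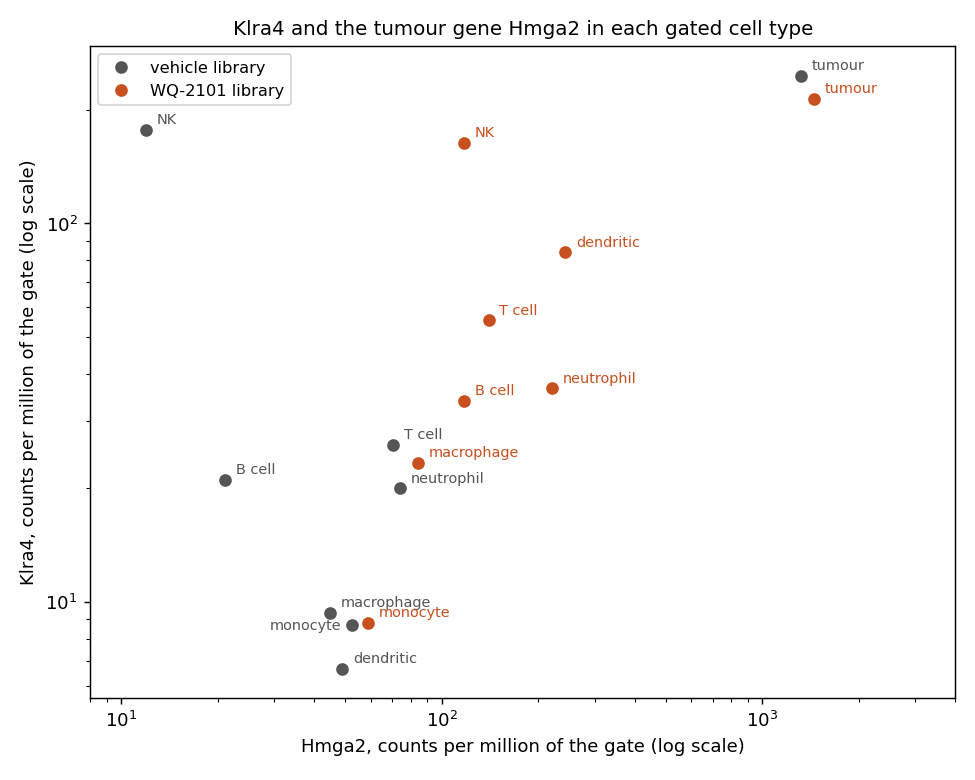
Klra4 against the tumour gene Hmga2, both in CPM on log axes, with 1 point for each of 8 gated cell types and each library (grey vehicle, orange WQ-2101). The vehicle NK point stands apart with much Klra4 at little Hmga2, 177 CPM against 12 CPM. The WQ-2101 NK point has 163 CPM of Klra4 at 117 CPM of Hmga2, where WQ-2101 B cells have 34.0 CPM of Klra4 at 117 CPM of Hmga2. Tumour cells are highest in both genes.

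The signalling partners of the receptors were measured as 5 lists. Of 20 adaptor and signalling genes, 19 were tested in NK cells, where 1 was higher (Lat, 4 and 11 UMIs) and 2 were lower in the WQ-2101 library (Vav1 at 47.8 and 30.2 CPM and Lat2 at 134 and 74.6 CPM), with a list median log2 ratio of -0.09 beside 0.07 over all genes; 19.4% of all genes tested were higher and 9.61% lower. Inside the NK cluster 2 were higher (Lat and Pik3r1, at 171 and 267 CPM) and 0 lower, where 14.0% and 11.3% of genes were. The adaptors of the activating receptors were abundant: Tyrobp was at 1473 and 1153 CPM, Fcer1g at 1672 and 1588 CPM and Hcst at 215 and 171 CPM. None of 3 inhibitory-branch phosphatases passed 1.5-fold in NK cells; Ptpn6, which the inhibitory tails recruit, was at 78.9 and 76.4 CPM. In CD8 T cells 0 of 19 adaptor and signalling genes and 0 of 3 phosphatases passed, with Hcst at 431 and 310 CPM.

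Among other NK receptors, 3 of 9 were lower in NK cells and 0 higher: Ncr1 (NKp46) at 218 and 117 CPM, Lilrb4a at 203 and 119 CPM and Crtam at 28.7 and 16.0 CPM (background 9.61% lower and 19.4% higher). Inside the NK cluster 1 of 9 was lower, Ncr1 at 223 and 135 CPM, and 1 was higher, Slamf7 at 67.0 and 116 CPM. Ncr1 and Eomes are also markers of the gate. Of 9 transcription factors in NK cells, Eomes was higher at 76.5 and 126 CPM with a ratio of 1.65 (1.07 to 2.59), Nfil3 was higher at 57.4 and 88.8 CPM, and Tbx21, which like Eomes drives NK maturation, was lower at 201 and 128 CPM. Inside the NK cluster Eomes (79.5 and 149 CPM) and Nfil3 (47.2 and 74.6 CPM) were past 1.5-fold, whereas Tbx21 at 201 and 154 CPM was not. In CD8 T cells 1 of 10 other receptors was higher (Cd96 at 46.6 and 76.5 CPM) and 2 were lower (Cd160 at 70.7 and 39.8 CPM and Crtam at 29.9 and 12.6 CPM), and 0 of 9 transcription factors passed. In macrophages the only list gene past 1.5-fold was Slamf7, of the other NK receptors, at 38.2 and 65.3 CPM with a ratio of 1.71 (1.57 to 1.86).

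Of 23 ligand genes listed, 18 were among the genes counted. H2-L, H60a, Raet1a, Raet1b and Raet1c were not, so their levels are unknown. Among ligand genes measured in tumour cells, class I genes dominated: H2-K1 was at 971 and 1151 CPM and H2-D1 at 613 and 647 CPM. Of the measured ligand genes of Klrk1, Raet1e was at 50.5 and 52.3 CPM and Ulbp1 at 44.8 and 31.9 CPM. No BALB/c sequence was used here, so which Raet1 copy the counts on Raet1e came from cannot be told. Clec2d, the ligand gene of Klrb1b, was at 8.85 and 12.3 CPM. H2-T23, which encodes the Qa-1 ligand of the Klrc1 receptor, was at 3.28 and 5.28 CPM, below the level needed for a call. None of the 6 ligand genes tested in tumour cells passed 1.5-fold in either direction, and in macrophages 0 of 7 did. The list held the cadherin genes Cdh1, Cdh2 and Cdh4 as ligand genes of Klrg1. In tumour cells Cdh2 was at 29.3 and 29.5 CPM and Cdh1 at 1.91 and 1.81 CPM. Cdh1 was the 1 ligand gene past 1.5-fold in NK cells (74.1 and 37.3 CPM) and in CD8 T cells (33.5 and 12.6 CPM), lower in the WQ-2101 library in both. Inside the NK cluster Cdh1 was at 77.0 and 48.1 CPM, with a ratio of 0.626 (0.338 to 1.13).

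In dendritic cells more of the lists were past 1.5-fold in the whole gate, where 12.8% of all genes were lower and 18.2% higher. Of 14 adaptor and signalling genes 8 were lower and 0 higher in the WQ-2101 library, with Tyrobp at 1266 and 784 CPM and Syk at 242 and 131 CPM, and 2 of 3 phosphatases were lower, with Ptpn6 at 112 and 63.8 CPM. The list medians were -0.61 and -0.77 beside 0.04 over all genes. Of the remaining lists, 4 of 5 other NK receptors and 2 of 7 transcription factors were lower and 0 higher. Among 9 ligand genes, 3 were lower and 1 higher. Hmga2 (48.9 and 243 CPM), Ptprc (549 and 412 CPM) and Lyz2 (1468 and 512 CPM) moved in the same gate. Inside the dendritic cluster most of these differences were smaller: 3 of 14 adaptor and signalling genes were lower (Hcst, Vav1 and Plcg1) and 1 was higher (Pik3r1), where 14.5% and 13.2% of genes were, and 0 of 3 phosphatases passed. There Tyrobp was at 1233 and 1196 CPM, Syk at 239 and 178 CPM and Ptpn6 at 112 and 92.0 CPM, and the list medians were -0.03 and -0.27 beside -0.02 over all genes. Of 8 ligand genes inside the cluster, 2 were higher, among them Clec2d at 41.0 and 80.1 CPM, and 2 were lower, with a list median of 0.28. In the same cells 1 of 5 other NK receptors was lower, and of 6 transcription factors 1 was higher and 1 lower.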

How the data were processed

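The authors deposited raw UMI counts per gene and barcode. Per the file headers these came from Cell Ranger 7.2.0, whereas version 2.2.2 and build GRCm38 stand in the submitters' processing notes. Whether introns were counted was not stated in what was used here. Barcodes were kept with at least 500 UMIs, 300 genes and at most 15% mitochondrial UMIs; Scrublet (in scanpy 1.11.5) marked 3.83% of vehicle and 4.17% of WQ-2101 barcodes, which were removed. The libraries held 184754398 and 185587327 UMIs over 14374 and 18142 barcodes.

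Cells were gated one by one on marker UMIs. NK cells needed 3 distinct NK markers, at least 1 UMI of Ncr1, Eomes or Prf1 and none of Cd3, Cd8, Cd4 or Foxp3; T cells needed 2 UMIs of Cd3d, Cd3e, Cd3g or Trac; macrophages needed 20 macrophage-marker UMIs per 10000; dendritic cells needed 2 distinct dendritic markers; tumour cells needed 15 tumour-marker UMIs per 10000 and no Ptprc. NK, T and dendritic gates allowed fewer than 10 macrophage-marker and 15 tumour-marker UMIs per 10000. The dendritic, macrophage, monocyte and B cell gates allowed fewer than 3 distinct NK markers. Leiden clusters (resolution 2, 2000 variable genes, 30 components, 15 neighbours, members left out) served as an alternative and held 87.9% of NK-gated, 87.6% of T-gated, 83.6% of dendritic-gated and 90.3% of macrophage-gated cells under the same name, but 11.6% of monocyte-gated cells.

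Counts were summed per gate and library and divided by the gate's UMIs (CPM). Poisson, Clopper-Pearson and conditional ratio intervals are exact. For log2 ratios (WQ-2101 over vehicle) 5 CPM were added to each level. Code was tested on simulated data. Promoters came from RefSeq and gene positions from GENCODE vM21. CPM was not corrected for transcript length, since 3′ ends were read. The rule for named genes was 10 UMIs over both libraries in a gated type; list genes were named where past 1.5-fold in NK, CD8 T, macrophage or tumour cells, with up to 4 further of the highest level. Alternatives were other cell sets, weights, pseudocounts and filters. Members and lists were chosen with earlier results of these data known, and the alternatives by cluster membership, without Hmga2 and without Klra4 after the data were seen. Software was Python 3.11.15, anndata 0.12.19, igraph 0.11.9, numpy 2.4.6, scipy 1.17.1, pandas 2.3.3, scikit-learn 1.9.0, Biopython 1.88 and matplotlib 3.10.9.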

Additional observations from a re-analysis of the deposited data

How the results depend on the processing

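With 1 library per group, no alternative measures variation between animals, and counts under about 10 UMIs limit what a gate can show. Of 351 member values under an alternative, 305 lay inside the counting interval of the reported value and 46 outside it; none that was past 1.5-fold changed sign. In NK cells, 7 members were past 1.5-fold, against 3 with Leiden clusters and 4 with gated cells in a cluster of the same name. The pathway count there was 10, against 16 with cells weighted alike and 5 with 20 CPM added. The summed inhibitory log2 ratio of -0.29 was -0.00088 with Leiden clusters, -0.0060 with cells weighted alike and -0.056 with gated cells in the cluster. The activating one of -0.31 was 0.064, 0.33 and -0.087 in the same order. In CD8 T cells, 2 members were past 1.5-fold, against 4 without Hmga2 cells, 1 with 20 CPM added, 1 with a mean of at least 20 CPM and 5 with no filter; the pathway count of 4 was 7 with Leiden clusters and 7 in the clusters. In dendritic cells, the 5 members were 1 without Hmga2 cells. The inhibitory sum there, -0.72, was -0.040 with Leiden clusters, -0.26 with cells weighted alike and -0.081 in the cluster, and the activating sum, -0.39, was -1.43 with Klra4 left out. In macrophages, the 2 members were 1 with Leiden clusters, 1 with cells weighted alike, 1 in the clusters, 1 without Hmga2 cells, 1 with a mean of at least 20 CPM and 0 with 20 CPM added, which also took the pathway count from 1 to 0. In tumour cells the pathway count of 0 was 1 with cells weighted alike and 2 with 1 CPM added. The share of NK cells with both roles was 59.7% and 55.4% when thinned, from 84.5% and 86%. The cause of these moves was not tested. No paired analysis was possible because each group has 1 library.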
